A study of Homo sapiens with 12 samples.

Results

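The collagen chain genes encode the alpha chains that fold into collagen triple helices. They were taken as all genes whose symbol in the platform annotation is COL, digits, A and digits with nothing more, and each was read on 1 probe set, the one of highest mean on the 12 arrays among those naming that gene alone. This gave 43 of the 19775 genes measured. Collagens were studied in 4 lines that come from SKBR-3, a HER2-amplified human breast cancer line. SKR6LR was made from SKR6 over several months in lapatinib, which inhibits the HER2 and EGFR kinases, with its concentration raised between 0.2 and 5 µM, and the growth protocol states that cells it calls SKLR were kept in 0.2 µM lapatinib. SKR6CA was SKR6 transduced with a retrovirus for constitutively active relA/p65 (CAp65), an NF-kB subunit, and SKR6-Vector was SKR6 transduced with the empty pQCXIP retrovirus, both then kept through puromycin selection. SKR6, the parent of the other lines, was a population sorted from SKBR-3 for elevated HER2, which all 4 lines therefore share. All lines were grown for 48 hours in the same serum-containing medium before RNA was taken, with 3 biological replicates and 3 arrays per line. Whether a line is a clone or a pool, and whether its replicates were derived separately, is not given in the sources used here, so p-values measure the spread between cultures of 1 line.

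Fibrillar collagens such as types I, III and V form the fibres of stroma, type IV forms the mesh of basement membranes, and the FACIT collagens (fibril-associated collagens with interrupted triple helices) coat fibrils. Fibroblasts make most fibrillar collagen in breast tissue, while epithelial cells mainly contribute basement membrane collagen. Chains are hydroxylated and folded in the endoplasmic reticulum, trimmed outside the cell and crosslinked by lysyl oxidases, and a trimer often needs products of more than 1 gene.

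Type IV chain genes are arranged in head-to-head pairs, so their start regions are shown first, with those of COL4A5 and COL15A1, which differed between lines below. RefSeq promoter windows on GRCh38.p14 run from 250 bases before to 50 bases after a gene's start and were found for 31 of the 43 genes. Capitals mark GGGCGG (the GC box), CCAAT and the kB consensus, searched on both strands, so that CCGCCC and ATTGG are the first 2 read on the other strand. The windows are chr13:110307108-110307407, minus strand, for COL4A1, chr13:110307034-110307333, plus strand, for COL4A2, chrX:108439588-108439887, plus strand, for COL4A5, and chr9:98943657-98943956, plus strand, for COL15A1.
COL4A1: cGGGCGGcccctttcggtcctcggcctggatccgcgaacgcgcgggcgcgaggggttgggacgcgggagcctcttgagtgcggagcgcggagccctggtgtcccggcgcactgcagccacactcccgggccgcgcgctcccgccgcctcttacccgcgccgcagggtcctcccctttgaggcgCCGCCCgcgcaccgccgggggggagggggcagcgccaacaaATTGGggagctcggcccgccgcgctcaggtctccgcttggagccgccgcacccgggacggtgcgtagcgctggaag
COL4A2: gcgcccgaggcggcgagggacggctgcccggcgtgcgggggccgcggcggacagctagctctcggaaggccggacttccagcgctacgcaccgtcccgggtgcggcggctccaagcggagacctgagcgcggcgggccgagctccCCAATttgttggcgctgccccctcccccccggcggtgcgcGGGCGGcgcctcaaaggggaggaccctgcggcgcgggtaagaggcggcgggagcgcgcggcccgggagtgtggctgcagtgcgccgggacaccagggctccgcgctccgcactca
COL4A5: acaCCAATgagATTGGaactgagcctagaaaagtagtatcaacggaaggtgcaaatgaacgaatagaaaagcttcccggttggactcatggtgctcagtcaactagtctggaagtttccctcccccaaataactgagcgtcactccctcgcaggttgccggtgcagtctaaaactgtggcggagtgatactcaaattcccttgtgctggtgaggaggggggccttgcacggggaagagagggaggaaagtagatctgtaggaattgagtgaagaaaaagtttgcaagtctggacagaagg
COL15A1: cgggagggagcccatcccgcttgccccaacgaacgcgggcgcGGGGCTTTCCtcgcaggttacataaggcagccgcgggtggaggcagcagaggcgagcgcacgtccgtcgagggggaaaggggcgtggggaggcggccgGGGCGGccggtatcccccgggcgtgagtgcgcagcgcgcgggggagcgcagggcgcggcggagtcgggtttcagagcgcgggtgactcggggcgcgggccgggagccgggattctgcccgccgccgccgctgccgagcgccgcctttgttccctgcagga

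The COL4A1 and COL4A2 windows share 226 bases, read on opposite strands, and 1 GGGCGG and 1 CCAAT of that stretch therefore belong to both. The COL15A1 window held 1 match to the kB consensus (GGGGCTTTCC) and 1 to GGGCGG. Among the 31 collagen windows, 58.1% held GGGCGG against 44.6% of all 27305 windows, 29.0% held CCAAT against 35.7%, and 16.1% held the kB consensus against 10.8%. TATAAA was in 12.9% of the collagen windows and in 11.95% of all windows, and TGANTCA (the AP-1 site) was in 0% against 7.76%. Of the 76 matches in collagen windows, 6 overlapped another match. Beside COL15A1, the kB consensus was found at COL4A4, COL7A1, COL25A1 and COL6A2. Such a match says only which letters stand in the window.

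All values are log2 expression from 3′ arrays normalised by the authors, on which 1 unit is a 2-fold difference, SEs are those of the fit, and a gene was called where limma's p, adjusted over all 19775 genes, was under 0.05. Array medians lay between 5.74 and 5.77, and no fold is given where SKR6 averaged below them, since such levels are not shown to be above background. The collagens spread more among the SKR6LR arrays (root mean square SD 0.207) than among those of SKR6CA (0.125), SKR6-Vector (0.124) and SKR6 (0.115). The same held over all genes, at 0.209, 0.107, 0.097 and 0.096 in that order. SKR6LR replicate 3 had the largest excess of 3′ over 5′ signal for actin, 2.32, against 1.03 to 1.73 on the other arrays. The luminal keratins and EPCAM were high in every line but differed between lines. KRT18 (0.63) and KRT8 (0.45) were higher and KRT19 lower (-0.94) in SKR6LR than in SKR6, and EPCAM was not called. KRT18 was also higher in SKR6-Vector than in SKR6 (0.30), and EPCAM was lower in SKR6CA than in SKR6-Vector (-0.34). The E-cadherin gene CDH1, which is known to be deleted in SKBR-3, averaged 4.24 in SKR6LR and 4.27 to 4.28 in the other lines. ERBB2, the HER2 gene, averaged 12.45 in SKR6LR and 13.83 in SKR6, a difference of -1.38. Of 8 fibroblast markers 1 differed between SKR6LR and SKR6 (FAP, 0.31), and the list's mean was 5.39 to 5.47 on SKR6LR arrays and 5.42 to 5.49 on those of SKR6. Among 5 endothelial genes CDH5 was higher in SKR6LR (3.83) and in SKR6-Vector (2.96) than in SKR6, and VWF was higher in SKR6LR (0.62), TEK was lower in SKR6LR (-0.22), and PECAM1 and KDR were not called. TEK was also higher in SKR6CA than in SKR6-Vector (0.31). Of 4 blood cell genes measured CD14 was higher in SKR6LR (1.72), LAPTM5 was lower both in SKR6LR (-0.35) and in SKR6-Vector (-0.35) than in SKR6, and the other two were not called. The fibroblast list's mean was 5.42 to 5.49 on SKR6CA arrays and 5.42 to 5.45 on SKR6-Vector arrays. The part of these genes, or of the actin 3′ excess, in the collagen results was not tested.

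In SKR6LR, a group of collagens stood far higher than in SKR6, led by the basement membrane pair COL4A1 and COL4A2, the fibrillar COL3A1 and the fibril-associated COL9A3, COL12A1 and COL14A1. Against SKR6, 14 of the 43 genes were higher in SKR6LR (32.6%, where 21.4% of all genes tested were), 3 were lower (6.98%, where 31% of all genes were) and 26 were not called. In either direction 39.5% were called, against 52.3% of all genes. Differences of at least 1 were found for 9 genes upward (20.9%, against 7.58% of all genes) and for 1 downward (2.33%, against 8.01%). The arrays of the 2 lines did not overlap for 48.8% of the collagens and for 57.9% of all genes. The median collagen difference was 0.06 and that of all genes -0.06, with a few large rises beside many small differences. Without SKR6LR replicate 3, 12 genes were called higher and 3 lower. As RNA came from whole cultures, more cells of a kind and more RNA per cell cannot be told apart.

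The main chains of basement membrane type IV collagen, COL4A1 and COL4A2, were raised together. COL4A1 had 10.91, 11.74 and 11.12 in SKR6LR, 5.32, 5.09 and 5.40 in SKR6CA, 6.33, 6.33 and 6.70 in SKR6-Vector and 5.08, 5.21 and 5.62 in SKR6. Every SKR6LR array was above every array of the other lines by several units, and SKR6-Vector lay above both SKR6CA and SKR6 without overlap. COL4A1 differed between SKR6LR and SKR6 by 5.95 (SE 0.20, adjusted p = 6.23e-11). Its partner in the trimer followed. COL4A2 had 11.23, 12.09 and 11.72 in SKR6LR, 7.60, 7.49 and 7.49 in SKR6CA, 7.73, 7.66 and 7.87 in SKR6-Vector and 7.30, 7.18 and 7.15 in SKR6. Here too the SKR6LR arrays stood alone, with the lines other than SKR6LR within a narrow band. The difference for COL4A2 was 4.47 (SE 0.16, adjusted p = 1.11e-10), or 22.1-fold. A second probe set for each gene was called in the same direction, at 3.44 for COL4A1 and 2.08 for COL4A2.

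The other type IV chains moved little or not at all in SKR6LR. COL4A5, a chain of specialised basement membranes such as that of the kidney glomerulus, had a different order of lines. COL4A5 had 4.97, 4.94 and 5.15 in SKR6LR, 4.22, 4.33 and 4.34 in SKR6CA, 6.55, 6.08 and 6.54 in SKR6-Vector and 4.18, 4.40 and 4.01 in SKR6. The SKR6-Vector arrays were the highest, those of SKR6LR came next, and those of SKR6CA and SKR6 overlapped at the bottom. The SKR6LR minus SKR6 difference was 0.82 (SE 0.13, adjusted p = 1.12e-04). It rests on a probe set of the _s_at kind, which may match more than 1 transcript, and the gene's other probe set gave 0.01 (adjusted p = 0.922). COL4A6, which neighbours COL4A5, was higher in SKR6LR by 0.35 (SE 0.10, adjusted p = 0.011), but without _s_at and _x_at probe sets its difference was -0.06, and without SKR6LR replicate 3 the call was lost. COL4A3 and COL4A4 had differences of 0.03 and 0.07 on the probe sets used and were not called. However, both other COL4A4 probe sets were called higher in SKR6LR, at 0.30 and 0.52, as was 1 of the 6 others of COL4A3, at 0.46.

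**Figure D1:**
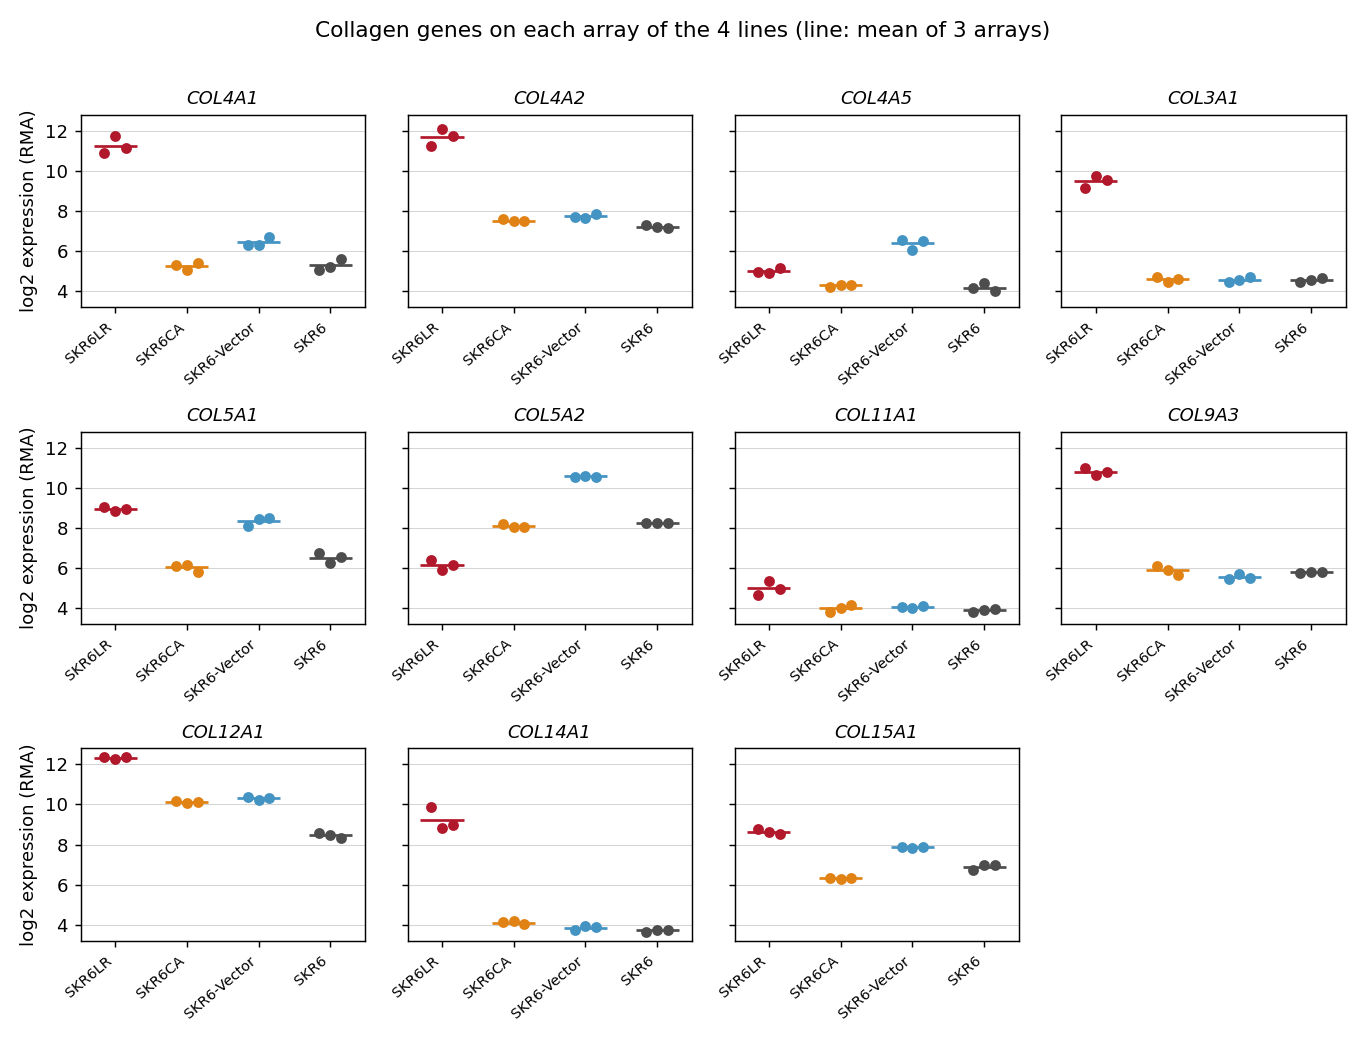
Log2 expression (vertical axis) of the 11 collagen genes with a called difference of at least 1 in any comparison, for the 3 arrays of each line (points) and their mean (line). SKR6LR stands above all other lines for 9 genes such as COL4A1 (10.91 to 11.74) and COL12A1 (12.27 to 12.36), while COL5A2 and COL4A5 are highest in SKR6-Vector and COL5A2 lowest in SKR6LR.

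Among the 11 fibrillar chain genes 3 rose (27.3%, where 21.4% of all genes did), 2 fell (18.2%, where 31% did) and 6 were not called in SKR6LR. COL3A1, the single chain of type III collagen of soft connective tissue, was raised in SKR6LR alone. COL3A1 had 9.16, 9.74 and 9.56 in SKR6LR, 4.73, 4.49 and 4.63 in SKR6CA, 4.49, 4.55 and 4.70 in SKR6-Vector and 4.46, 4.57 and 4.69 in SKR6. The SKR6LR arrays were far above all others, and the other lines overlapped one another. COL3A1 differed by 4.92 (SE 0.13, adjusted p = 5.71e-12). Of its 4 other probe sets 3 were called in the same direction, at 4.32, 1.73 and 0.47, and 1 was not called, at -0.14. With _s_at and _x_at probe sets left out, the value for COL3A1 was therefore 0.47.

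The type V chains went opposite ways in SKR6LR. COL5A1 encodes the chain that limits fibril diameter. COL5A1 had 9.02, 8.86 and 8.92 in SKR6LR, 6.12, 6.18 and 5.80 in SKR6CA, 8.09, 8.42 and 8.49 in SKR6-Vector and 6.73, 6.27 and 6.57 in SKR6. SKR6LR was highest and SKR6-Vector next, both clear of SKR6CA and SKR6. The SKR6LR minus SKR6 difference for COL5A1 was 2.41 (SE 0.14, adjusted p = 9.58e-09), or 5.32-fold, and its 2 other probe sets gave 2.80 and 2.33. COL5A2 encodes the second chain of the common type V trimer and lies beside COL3A1 in the gene order of chromosome 2. COL5A2 had 6.41, 5.91 and 6.15 in SKR6LR, 8.20, 8.02 and 8.05 in SKR6CA, 10.54, 10.61 and 10.54 in SKR6-Vector and 8.25, 8.24 and 8.22 in SKR6. The SKR6LR arrays were the lowest of the 12 and the SKR6-Vector arrays the highest, with SKR6CA just below SKR6. COL5A2 was lower in SKR6LR, at -2.08 (SE 0.10, adjusted p = 2.26e-09), a 4.23-fold difference, and its other probe set gave -2.29. Its neighbour COL3A1 thus differed in the opposite direction. COL5A3 was not called, at 0.18.

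COL11A1 is a minor fibrillar chain best known from cartilage. COL11A1 had 4.65, 5.38 and 4.96 in SKR6LR, 3.82, 4.02 and 4.18 in SKR6CA, 4.04, 4.01 and 4.10 in SKR6-Vector and 3.79, 3.93 and 3.96 in SKR6. The SKR6LR arrays lay above the other 9 and spread most. On every array of every line COL11A1 was below the array medians, a level not shown to be above background. The difference for COL11A1 was 1.10 (SE 0.15, adjusted p = 3.14e-05), while COL11A2, its partner chain, was not called at -0.23. COL24A1 was lower in SKR6LR, at -0.21 (SE 0.08, adjusted p = 0.0413), a call that was lost when any of the 3 SKR6LR or 3 SKR6 arrays was left out. COL1A1 and COL1A2, the chains of type I collagen, were not called, at -0.24 and 0.00. COL2A1 (-0.12) and COL27A1 (-0.02) were not called either. On probe sets that were not used, COL1A1 was however called lower at -0.60 and COL2A1 at -0.28.

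Of 10 FACIT genes 4 were higher in SKR6LR (40%, where 21.4% of all genes were), 1 was lower (10%, where 31% were) and 5 were not called. COL9A3 encodes 1 of 3 distinct chains of type IX collagen, which decorates cartilage fibrils. COL9A3 had 10.96, 10.63 and 10.78 in SKR6LR, 6.11, 5.89 and 5.67 in SKR6CA, 5.45, 5.69 and 5.50 in SKR6-Vector and 5.75, 5.82 and 5.80 in SKR6. Only the SKR6LR arrays were raised, and the other lines lay close together. The difference was 5.00 (SE 0.11, adjusted p = 1.42e-12), or 31.9-fold, on a probe set of the _s_at kind that is the only kind the gene has here. Its partner COL9A2 was lower in SKR6LR, with 6.42, 6.07 and 6.22 in SKR6LR and 6.91, 6.78 and 6.68 in SKR6. That difference was -0.56 (SE 0.10, adjusted p = 5.59e-04). The third partner, COL9A1, was not called at -0.31, so the chains of type IX did not move together.

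COL12A1 encodes a chain that binds the surface of type I fibrils. COL12A1 had 12.36, 12.27 and 12.35 in SKR6LR, 10.19, 10.09 and 10.14 in SKR6CA, 10.39, 10.21 and 10.31 in SKR6-Vector and 8.57, 8.50 and 8.33 in SKR6. The 4 lines formed 3 levels, with SKR6LR at the top, SKR6CA and SKR6-Vector in the middle without overlap with either end, and SKR6 at the bottom. COL12A1 differed by 3.86 (SE 0.07, adjusted p = 3.13e-13), or 14.5-fold, and all 4 of its other probe sets were called higher, at 1.04 to 4.32. COL14A1 encodes a relative of this chain found in tendon and skin. COL14A1 had 9.86, 8.82 and 8.97 in SKR6LR, 4.14, 4.18 and 4.05 in SKR6CA, 3.74, 3.96 and 3.91 in SKR6-Vector and 3.64, 3.77 and 3.77 in SKR6. The SKR6LR arrays were far above the rest, with replicate 1 the highest. Its difference was 5.49 (SE 0.20, adjusted p = 1.34e-10). All 3 other COL14A1 probe sets were called higher with smaller differences of 0.32 to 2.61, and the mean of its probe sets gave 2.25. COL21A1 was higher by 0.83 (SE 0.07, adjusted p = 3.07e-07). COL16A1 missed the threshold at 0.40 (SE 0.16, adjusted p = 0.0536).

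Both multiplexins, basement membrane zone collagens whose C-terminal fragments are known as restin and endostatin, were higher in SKR6LR. COL15A1 had 8.76, 8.65 and 8.52 in SKR6LR, 6.36, 6.30 and 6.33 in SKR6CA, 7.89, 7.84 and 7.90 in SKR6-Vector and 6.74, 6.99 and 6.98 in SKR6. SKR6LR was the highest, SKR6-Vector was next, SKR6 followed and SKR6CA was the lowest, with no overlap between any of the lines. COL15A1 differed between SKR6LR and SKR6 by 1.74 (SE 0.08, adjusted p = 9.75e-10), or 3.33-fold. COL18A1 had 7.15, 7.90 and 7.46 in SKR6LR and 6.75, 6.84 and 6.67 in SKR6, a difference of 0.75 (SE 0.14, adjusted p = 5.00e-04). COL26A1, which belongs to none of these groups, was higher by 0.38 (SE 0.14, adjusted p = 0.041) with arrays that overlapped, and its call was lost without any 1 of 10 arrays, with a difference of 0.24 without SKR6LR replicate 3. None of the 5 beaded filament genes of type VI, the 3 short-chain network genes (COL8A1, COL8A2, COL10A1), the anchoring fibril gene COL7A1 or the 3 transmembrane genes measured (COL13A1, COL23A1, COL25A1) was called by limma, and their differences lay between -0.19 and 0.13. On probe sets that were not used, COL7A1 was called higher at 0.21, COL6A1 higher at 1.49, and COL13A1 lower at -1.47 and -0.41. At an unadjusted p under 0.05, 16 of the 43 genes were higher and 5 lower, where 23% and 33.4% of all genes were. Without _s_at and _x_at probe sets, 9 of 37 genes were called higher. The share of all genes called higher under that setting is not given, so this count has no background share.

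**Figure D2:**
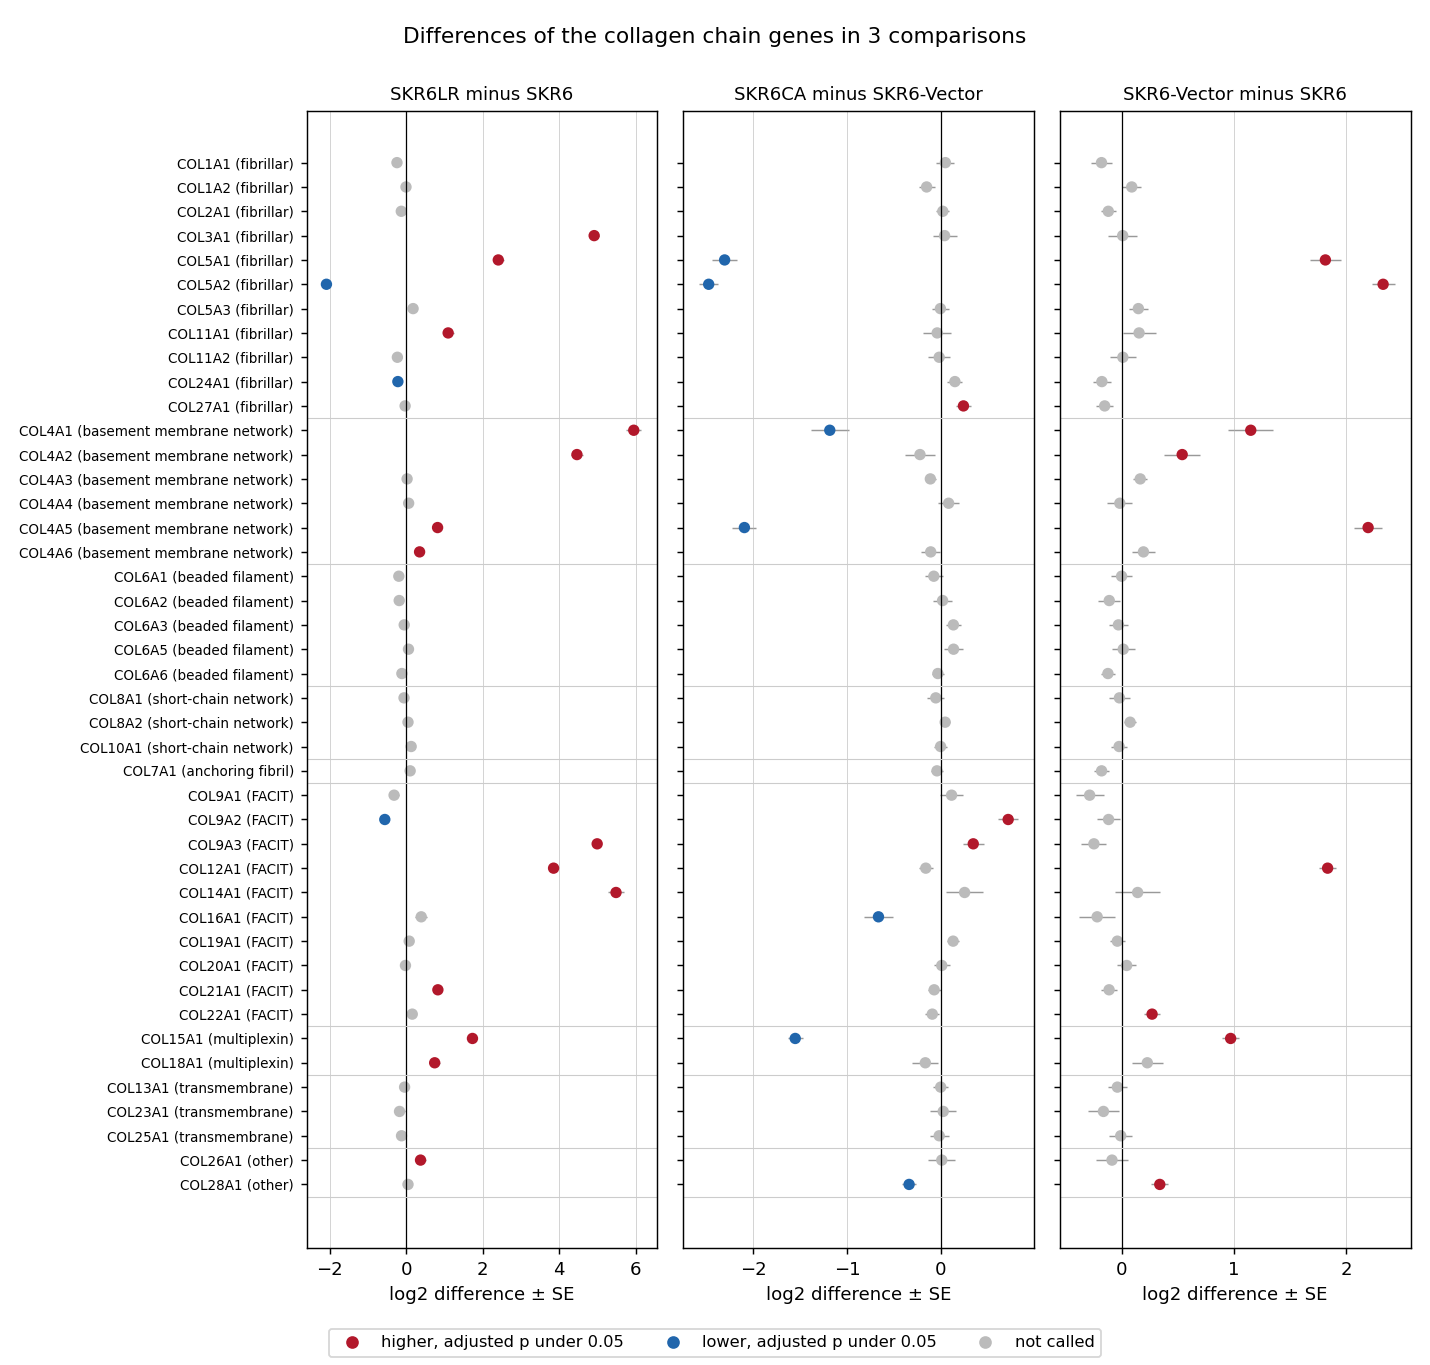
Log2 difference with its SE (horizontal axis) for each of the 43 collagen genes, grouped by collagen class (vertical axis), in SKR6LR minus SKR6, SKR6CA minus SKR6-Vector and SKR6-Vector minus SKR6. Coloured points are called higher or lower and grey points are not called; the 14 higher genes of the first comparison reach 5.95, and the 7 lower genes of the second reach -2.47.

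The line with active p65 was next compared with the line that carries the empty vector. In SKR6CA the share of collagens lower than in SKR6-Vector was close to that of all genes. The largest differences were those of type V, type IV and type XV chains. Of the 43 genes 7 were lower (16.3%, where 14.9% of all genes were), 3 were higher (6.98%, where 11.7% were) and 33 were not called. In either direction 23.3% were called, against 26.6% of all genes, and at an unadjusted p under 0.05 limma had 3 genes higher and 8 lower, where 15.9% and 18.8% of all genes were. Differences of at least 1 were found for 5 genes downward (11.6%, against 1.8% of all genes) and for 0 upward (0%, against 1.08%). The arrays of these lines did not overlap for 34.9% of the collagens and for 45.5% of all genes. The median difference was -0.02, against 0.00 over all genes.

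The 5 larger differences were those of COL5A2, COL5A1, COL4A5, COL15A1 and COL4A1, whose array values are given above. COL5A2 was lower in SKR6CA than in SKR6-Vector, at -2.47 (SE 0.10, adjusted p = 6.71e-09), a 5.55-fold difference. COL5A1, the other common type V chain, was at -2.30 (SE 0.14, adjusted p = 1.39e-07), so that both type V chains were lower here. For each of these 2 genes every SKR6CA array lay more than 1 unit below every SKR6-Vector array. COL4A5 was lower, at -2.09 (SE 0.13, adjusted p = 1.83e-07) on its _s_at probe set, while its other probe set gave 0.06. COL15A1 was lower, at -1.55 (SE 0.08, adjusted p = 3.52e-08) with replicate SDs of 0.03 in each line. COL4A1 was lower, at -1.18 (SE 0.20, adjusted p = 7.39e-04), whereas COL4A2 was not called at -0.22 (SE 0.16, adjusted p = 0.379).

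The remaining calls against the vector were smaller. COL16A1, a FACIT chain, was lower, at -0.66 (SE 0.16, adjusted p = 0.00752), with 7.20, 7.02 and 6.86 in SKR6CA and 7.68, 7.67 and 7.73 in SKR6-Vector. COL28A1, a chain described in peripheral nerve, was lower, at -0.34 (SE 0.08, adjusted p = 0.00481). COL9A2 was higher by 0.72 (SE 0.10, adjusted p = 2.46e-04), with 7.39, 7.25 and 7.54 in SKR6CA and 6.81, 6.61 and 6.61 in SKR6-Vector. COL9A3 (0.34 (SE 0.11, adjusted p = 0.0379), arrays that overlapped) and COL27A1 (0.24 (SE 0.08, adjusted p = 0.0392)) were higher by little, and both calls were lost when SKR6CA replicate 1, among other arrays, was left out. Of the genes raised most in SKR6LR, COL3A1, COL12A1 and COL14A1 were not called in SKR6CA against SKR6-Vector, at 0.04, -0.16 and 0.25.

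With SKR6 as the control for SKR6CA, most of these differences were small. Only 4 genes were called lower (9.30%, where 14.4% of all genes were) and 2 higher (4.65%, where 9.97% were), together 14.0% against 24.3% of all genes. The lower genes were COL16A1 (-0.88), COL15A1 (-0.58), COL5A1 (-0.49) and COL7A1 (-0.22), and none differed by as much as 1, where 0.905% of all genes did. The higher genes were COL12A1 at 1.67 (SE 0.07, adjusted p = 1.34e-08) and COL9A2 at 0.60 (SE 0.10, adjusted p = 0.00113), of which COL12A1 passed 1, as did 1.29% of all genes. Arrays did not overlap for 34.9% of the collagens and 45.5% of all genes. COL5A2 (-0.14 (SE 0.10, adjusted p = 0.368)), COL4A1 (-0.03 (SE 0.20, adjusted p = 0.938)) and COL4A5 (0.10 (SE 0.13, adjusted p = 0.651)) were not called against SKR6. The lower values of these 3 genes in SKR6CA hold against SKR6-Vector and were not detected against SKR6, while COL16A1, COL15A1 and COL5A1 were lower than in either.

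SKR6-Vector was then compared with SKR6, neither of which carries the p65 construct. Here 9 collagens were higher (20.9%, where 12.2% of all genes were), 0 lower (0%, where 13.4% were) and 34 were not called by limma, so that 20.9% were called in either direction against 25.7% of all genes. At an unadjusted p under 0.05, 10 were higher and 3 lower, where 16.1% and 18.4% of all genes were, and other settings called 0 to 4 lower. At least 1 unit higher were 5 genes (11.6%, against 1.91% of all genes), and 0 were lower by as much (0.759% of all genes). The arrays did not overlap for 41.9% of the collagens and 48.2% of all genes.

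The genes higher in SKR6-Vector were led by COL5A2, COL4A5, COL12A1 and COL5A1. COL5A2 was higher than in SKR6 by 2.33 (SE 0.10, adjusted p = 9.64e-09), COL12A1 by 1.83 (SE 0.07, adjusted p = 4.10e-09), and COL5A1 by 1.81 (SE 0.14, adjusted p = 1.13e-06). These are 5.02-fold, 3.56-fold and 3.52-fold. COL4A5 was higher by 2.19 (SE 0.13, adjusted p = 1.12e-07) on its _s_at probe set and by 0.02 on the other. COL4A1 was higher by 1.15 (SE 0.20, adjusted p = 9.98e-04), and COL15A1, just under 1 unit, by 0.97 (SE 0.08, adjusted p = 1.98e-06). COL4A2, COL28A1 and COL22A1 were higher by 0.54 (SE 0.16, adjusted p = 0.0257), 0.34 (SE 0.08, adjusted p = 0.00498) and 0.27 (SE 0.07, adjusted p = 0.0147). The COL4A2 call was lost without SKR6 replicates 2 or 3 or SKR6-Vector replicates 1 or 3, and that of COL22A1 without SKR6 replicate 2 or SKR6-Vector replicates 1 or 2.

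Since SKR6CA minus SKR6-Vector and SKR6-Vector minus SKR6 share the SKR6-Vector arrays, and SKR6-Vector minus SKR6 shares the SKR6 arrays with SKR6LR minus SKR6, no likeness between them is drawn and values are set side by side. COL5A2 had -2.08 for SKR6LR minus SKR6, -2.47 for SKR6CA minus SKR6-Vector and 2.33 for SKR6-Vector minus SKR6. COL5A1 had 2.41, -2.30 and 1.81 in that order. COL4A1 had 5.95, -1.18 and 1.15. COL12A1 stands apart from these in its middle value, with 3.86, -0.16 and 1.83, as its raised level in SKR6-Vector was also seen in SKR6CA.

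**Figure D3:**
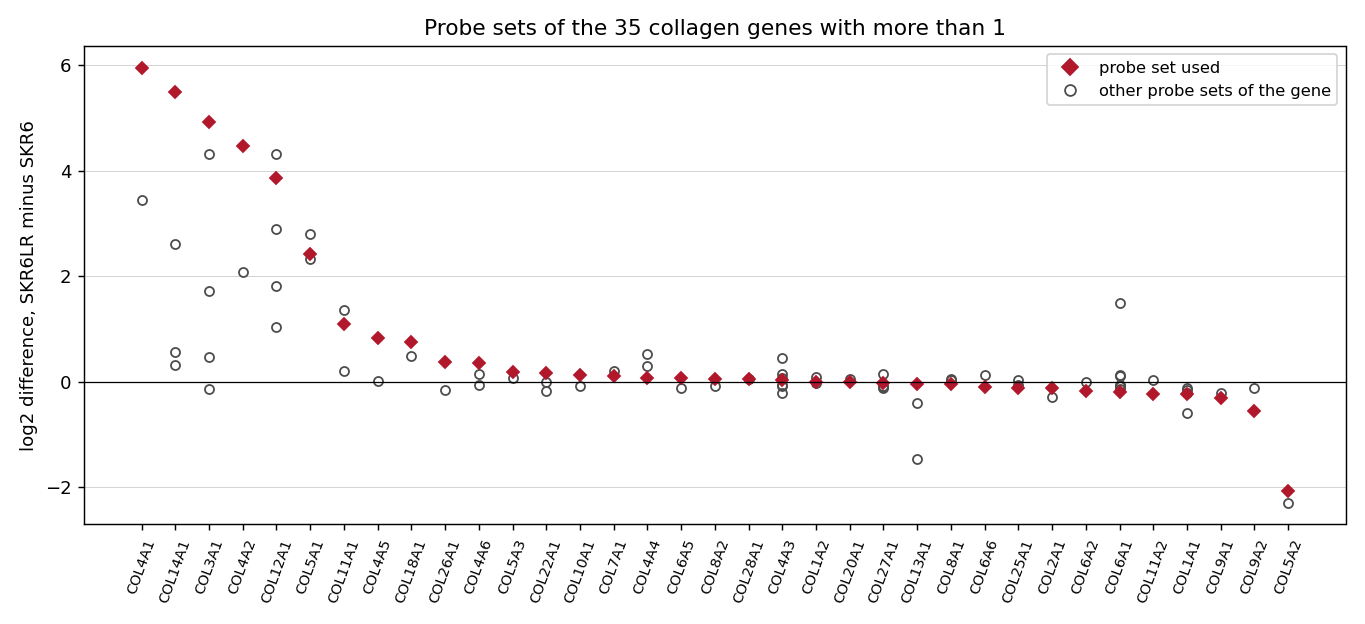
Log2 difference SKR6LR minus SKR6 (vertical axis) on each probe set of the 35 collagen genes that have more than 1 (horizontal axis), with diamonds for the probe set used and open circles for the others. COL4A1, COL5A1, COL5A2 and COL12A1 keep 1 direction on all their probe sets, while the probe sets of COL4A5 lie at 0.82 and 0.01.

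Probe sets that were not chosen give a further reading of the same RNA. For the 17 collagens called in SKR6LR minus SKR6, 4 had a single probe set and the rest had 24 others, of which 17 were called in the same direction, 0 in the opposite direction and 7 were not called. In SKR6CA minus SKR6-Vector these were 5 of 11 in the same direction, 0 opposite and 6 not called. In SKR6-Vector minus SKR6 they were 6 of 13, 0 and 7. Among the genes not called in SKR6LR minus SKR6, 9 of 45 other probe sets were called. On the probe sets used, 52.3% of all genes were called in that comparison. The same counts over the other probe sets of all genes were not made, so the collagen counts cannot be set against a background share. The array's probe sets for a gene can lie in different stretches of its transcript.

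The SKR6LR minus SKR6 and SKR6CA minus SKR6-Vector comparisons share no array, and their difference was tested for each gene. It was positive for 16 of the 43 genes (37.2%, where 19.8% of all genes were) and negative for 2 (4.65%, where 25.6% were), in all 41.9% against 45.4%. At least 1 unit apart were 11 genes in the positive direction (25.6%, against 8.35% of all genes) and 1 in the negative (2.33%, against 8.22%). COL4A1 had the widest gap, 7.14 (SE 0.28, adjusted p = 6.26e-10), since it was higher in SKR6LR and lower in SKR6CA, each against its control. COL5A1 at 4.71 (SE 0.19, adjusted p = 8.26e-10) and COL15A1 at 3.29 (SE 0.11, adjusted p = 1.26e-10) were likewise higher in 1 comparison and lower in the other. So was COL4A5 at 2.92 (SE 0.18, adjusted p = 3.88e-08), but only on its _s_at probe set. Against SKR6, COL4A1 (-0.03) and COL4A5 (0.10) were not called in SKR6CA. COL16A1 differed by 1.06 (SE 0.23, adjusted p = 0.00172) and COL28A1 by 0.39 (SE 0.11, adjusted p = 0.00916). COL5A2, lower in both, differed by only 0.39 (SE 0.14, adjusted p = 0.0429). However, COL5A2 was not called in SKR6CA against SKR6, at -0.14. COL9A2 ran the other way at -1.27 (SE 0.15, adjusted p = 1.28e-05), being lower in SKR6LR and higher in SKR6CA, and COL24A1 followed at -0.36 (SE 0.11, adjusted p = 0.0197).

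In all, 21 of the 43 collagens were called in at least 1 of the 3 comparisons with their own controls and 22 in none. Of all genes, 52.3% were called in SKR6LR minus SKR6 alone, and the share called in any of the 3 was not counted. Of the 22 uncalled collagens, 21 had a mean over the arrays below that of the median gene (6.84), the exception being COL1A1. Their line means lay between 3.71 and 7.56. They include COL1A1 and COL1A2, COL2A1, COL4A3 and COL4A4, COL5A3, all 5 type VI genes (COL6A1, COL6A2, COL6A3, COL6A5, COL6A6), COL7A1, COL8A1 and COL8A2, COL9A1, COL10A1, COL11A2, COL13A1, COL19A1, COL20A1, COL23A1 and COL25A1. Of the 43 genes, 10 lay at or above that median and 33 below it. On values without a detection call, an uncalled low gene may be unexpressed or changed too little to see.

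The enzymes, chaperones and crosslinkers that collagen needs were read from a list of 37 genes, of which 36 were measured. In SKR6LR against SKR6, 13 were higher (36.1%, where 21.4% of all genes were), 10 lower (27.8%, where 31% were) and 13 not called, with a median of 0.02, against -0.06 over all genes. SPARC, a collagen-binding matricellular chaperone, had the largest difference at 8.11 (SE 0.11, adjusted p = 2.69e-14), averaging 12.58 ± 0.01 (SD, n = 3) in SKR6LR and 4.47 ± 0.27 (SD, n = 3) in SKR6. P3H2, a prolyl 3-hydroxylase that acts on type IV collagen, was higher by 7.25 (SE 0.07, adjusted p = 1.46e-15) on an _s_at probe set, but with such probe sets left out its difference was -0.22. The crosslinking lysyl oxidase LOXL2 was higher by 4.30 (SE 0.13, adjusted p = 1.84e-11), also on an _s_at probe set. Its call held under every other setting, but its difference ranged from 0.96 to 4.43. The collagen chaperone SERPINH1 (HSP47) was higher by 1.81 (SE 0.14, adjusted p = 1.89e-07). ADAMTS3, a procollagen N-proteinase, was higher by 1.01 (SE 0.17, adjusted p = 2.76e-04).

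Other steps of the same path were lower in SKR6LR. PLOD2, the lysyl hydroxylase of collagen telopeptides, averaged 8.37 ± 0.15 (SD, n = 3) in SKR6LR and 11.17 ± 0.02 (SD, n = 3) in SKR6, a difference of -2.79 (SE 0.07, adjusted p = 7.42e-12). The prolyl 4-hydroxylase subunits P4HA2 and P4HA1 were lower, at -1.09 (SE 0.12, adjusted p = 5.88e-06) and -0.64 (SE 0.07, adjusted p = 5.99e-06), the call for P4HA1 being lost at -0.06 without _s_at and _x_at probe sets. TMEM38B, an endoplasmic reticulum ion channel needed for collagen assembly, was lower, at -1.14 (SE 0.12, adjusted p = 3.61e-06) and the folding isomerase FKBP14 was at -1.01 (SE 0.11, adjusted p = 3.86e-06). The prolyl and lysyl hydroxylase group was mixed, with 4 of 13 higher (30.8%, where 21.4% of all genes were) and 6 lower (46.2%, where 31% were).

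Against SKR6-Vector, SKR6CA had 9 of the 36 genes higher (25.0%, where 11.7% of all genes were) and 5 lower (13.9%, where 14.9% were). SERPINH1 was lower, at -1.32 (SE 0.14, adjusted p = 1.94e-05), as were CRTAP, a cofactor of prolyl 3-hydroxylation, at -0.71 (SE 0.06, adjusted p = 4.34e-06), and TMEM38B at -0.37 (SE 0.12, adjusted p = 0.0368). P3H1 and P3H2 were lower, at -0.31 and -0.30. The TMEM38B call was lost when any 1 of 8 arrays was left out, all those of SKR6CA and SKR6-Vector among them, the P3H1 call without replicate 2 or 3 of either line, and the P3H2 call without _s_at and _x_at probe sets. The procollagen export genes SEC24D and MIA3 were higher by 0.91 (SE 0.18, adjusted p = 0.00216) and 0.56 (SE 0.10, adjusted p = 9.19e-04), and LOXL1, FKBP10 and PLOD1 by 0.90, 0.85 and 0.43. These last 3 had differences of -0.01, -0.10 and -0.01 for SKR6CA against SKR6. SKR6-Vector against SKR6 had 8 higher (22.2%, where 12.2% of all genes were) and 6 lower (16.7%, where 13.4% were), led by SERPINH1 (0.88), LOXL2 (0.84), P3H1 (0.49), SEC23A (0.49) and P3H2 (0.41) upward. The LOXL2 and P3H2 calls were lost with the mean of probe sets. FKBP10 (-0.95), LOXL1 (-0.90), LOXL3 (-0.87), P3H4 (-0.44) and PLOD1 (-0.44) were lower.

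**Figure D4:**
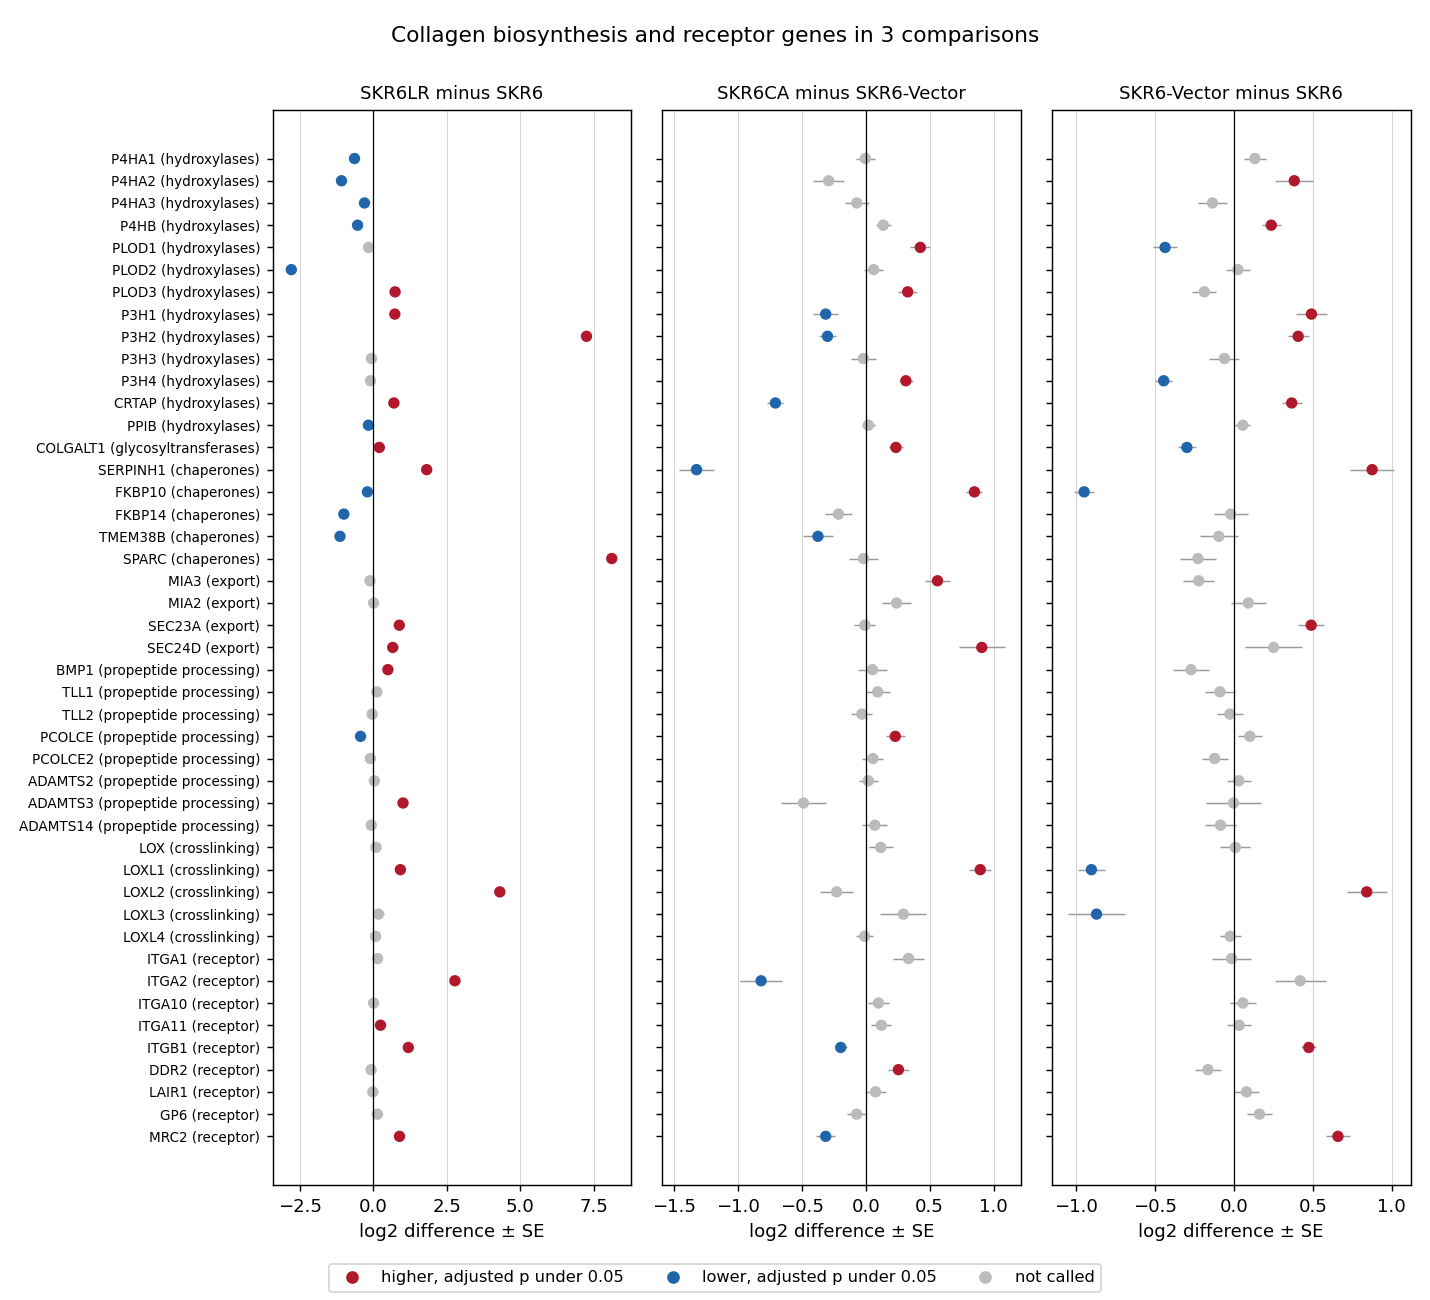
Log2 difference with its SE (horizontal axis) of the collagen biosynthesis and receptor genes (vertical axis) in the 3 comparisons, coloured where called. SPARC, P3H2 and LOXL2 reach 8.11, 7.25 and 4.30 in SKR6LR minus SKR6, and PLOD2 lies at -2.79.

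Of 9 collagen receptor genes measured, 4 were higher in SKR6LR than in SKR6 (44.4%, where 21.4% of all genes were) with no called gene lower (31% of all genes), the lowest difference being -0.08. ITGA2 and ITGB1, the subunits of the collagen-binding integrin alpha2beta1, were higher by 2.77 (SE 0.16, adjusted p = 1.23e-08) and 1.19 (SE 0.05, adjusted p = 3.90e-10). MRC2, an endocytic collagen receptor, was higher by 0.89 (SE 0.08, adjusted p = 4.96e-07) and ITGA11 by 0.24 (SE 0.08, adjusted p = 0.0203), a call that was lost without SKR6LR replicate 3 or SKR6 replicate 1. In SKR6CA against SKR6-Vector 3 were lower (33.3%, where 14.9% of all genes were), ITGA2 (-0.82), MRC2 (-0.31) and ITGB1 (-0.20), and 1 was higher (11.1%, where 11.7% of all genes were), the receptor kinase gene DDR2 at 0.26. The DDR2 call was lost with the replicate number as a block and without any 1 of 6 arrays, SKR6CA replicates 1 and 2 and SKR6-Vector replicates 1 and 2 among them. In the same comparison the MRC2 call was lost with the mean of probe sets. The ITGB1 call was lost with the mean of probe sets and after median centring. Against SKR6, ITGA2 was not called in SKR6CA, at -0.40. MRC2 and ITGB1 were however higher in SKR6CA than in SKR6, by 0.35 and 0.28. In SKR6-Vector against SKR6 the same 2 genes were higher (22.2%, where 12.2% of all genes were), by 0.66 and 0.47.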

How the data were processed

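Total RNA from 12 cultures was amplified from an oligo-dT primer and hybridised to 3′ arrays of 54675 probe sets, per the labels' protocols. The values deposited by the authors are log2 expression values, and RMA and limma are named without versions or roles in the submitters' processing notes. RMA scales the arrays jointly and compresses differences near background, levels are relative, and no value carries a detection call. The number of arrays limits the precision.

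Genes were assigned to probe sets from the 2016 platform annotation, and RefSeq gene IDs gave current symbols. It named 41097 probe sets with 1 gene, 1801 with several and 11777 with none here. Each of the 19775 genes was read on the probe set that names it alone and, where there were several, has the highest mean of the 12 arrays. COL17A1, COLGALT2 and DDR1 were not analysed here. Levels of different genes were not compared, apart from splitting genes at the median gene mean.

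Differences came from limma 3.58.1 (R 4.3.3; lmFit, eBayes) fitted to line means on all 12 arrays with no filter. P-values were corrected over the whole set of genes with the Benjamini-Hochberg method, and 0.05 was the threshold of a call. SEs use a spread pooled over the lines, although SKR6LR arrays vary most. The model was checked on simulated data. Single probe sets were fitted in the same way, with p-values adjusted over all named probe sets. The collagen genes, the other lists and the tests were chosen with earlier results of these data known. Collagens with a called difference of at least 1 and arrays that did not overlap are given array by array, and of the other lists up to 5 called genes each way are named. The settings varied were a block for replicate number, single arrays omitted, scaling (cyclic loess or median centring), robust fitting with a trend, weights per group, a fit to the compared arrays alone, omission of low genes, probe sets averaged, probe sets of the _x_at and _s_at kinds omitted, and SKR6 as the control of SKR6CA.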

Additional observations from a re-analysis of the deposited data

Results flagged for a closer look

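Probe sets that were not used for their genes held 3 differences of more than 1 on the log2 scale where the probe set used was not called. On another probe set, of the _s_at kind, COL13A1, a transmembrane collagen, had 4.18, 4.83 and 4.47 in SKR6LR, 5.01, 5.21 and 5.17 in SKR6CA, 4.24, 3.99 and 4.42 in SKR6-Vector and 5.97, 6.14 and 5.79 in SKR6. Every SKR6 array was above those of the other lines. The differences were -1.47 for SKR6LR minus SKR6 and -1.75 for SKR6-Vector minus SKR6, while the probe set used for COL13A1 gave -0.04 in both. On 1 of its _s_at probe sets, COL6A1, a type VI chain, had 6.19, 7.23 and 7.17 in SKR6LR, against 5.33, 5.30 and 5.49 in SKR6, a difference of 1.49. The SKR6LR arrays were the higher ones without overlap. The other 7 COL6A1 probe sets, including the one used at -0.19, were not called.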

How the results depend on the processing

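Of 36 single-gene collagen results, 23 kept their call and direction under every alternative run. For collagen chain genes higher in SKR6LR minus SKR6 the count was 14, and 8 with low values left out (10 collagens tested) and 9 without _x_at or _s_at probe sets (37 tested); 12 to 14 were called when each array was left out. For collagen chain genes lower in SKR6LR minus SKR6 the count was 3, 2 to 4 without single arrays and 7 with the mean of probe sets. For collagen chain genes higher in SKR6CA minus SKR6-Vector it was 3, 1 to 4 without single arrays and 1 with low values left out. For collagen chain genes lower in SKR6CA minus SKR6-Vector it was 7, 7 without any single array and 4 with SKR6 as the control. For collagen chain genes higher in SKR6-Vector minus SKR6 it was 9, and 7 to 10 without single arrays. For collagen chain genes lower in SKR6-Vector minus SKR6 it was 0, 0 to 1 without single arrays, 1 after median centring, 3 with group weights, 4 with only the arrays compared and 2 with the mean of probe sets. For the difference between the SKR6LR minus SKR6 and SKR6CA minus SKR6-Vector differences, collagen chain genes called were 18, 16 to 20 without single arrays and 9 with low values left out. Apart from the smaller number of genes tested where low values or probe set kinds were left out, the cause was not tested. Except with SKR6 as the control, the share of all genes called under these settings is not given. The counts under them therefore have no background share.

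Directions turned without _x_at or _s_at probe sets for COL4A6, SKR6LR minus SKR6 (-0.059), P3H2, SKR6LR minus SKR6 (-0.22), COL4A5, SKR6CA minus SKR6-Vector (0.062) and P3H2, SKR6-Vector minus SKR6 (-0.16), and with the mean of probe sets for COL22A1, SKR6-Vector minus SKR6 (-0.0072). With SKR6 as the control for SKR6CA, directions turned for COL28A1, SKR6CA minus SKR6-Vector (0.0019), COL4A5, SKR6CA minus SKR6-Vector (0.10), LOXL1, SKR6CA minus SKR6-Vector (-0.0068), FKBP10, SKR6CA minus SKR6-Vector (-0.10), PLOD1, SKR6CA minus SKR6-Vector (-0.0086), P3H1, SKR6CA minus SKR6-Vector (0.18), P3H2, SKR6CA minus SKR6-Vector (0.11), MRC2, SKR6CA minus SKR6-Vector (0.35) and ITGB1, SKR6CA minus SKR6-Vector (0.28). The cause was not tested.

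Over all genes, 52.3% of the SKR6LR minus SKR6 calls were higher after cyclic loess, against 40.8%, and 56.2% of the SKR6CA minus SKR6-Vector calls after median centring, against 43.9%; neither moved the median by 0.1. Replicate numbers recur in each line, and the labels do not say whether they pair the samples. Arrays of the same number had correlations of their deviations from -0.03 to 0.09, and those of different numbers from -0.12 to 0.09. With 3 arrays per line, such values cannot settle whether samples were paired. With the replicate number as a block, collagen chain genes higher in SKR6LR minus SKR6 were 14 and lower were 4, those of SKR6CA minus SKR6-Vector 3 and 7, those of SKR6-Vector minus SKR6 9 and 0, and the difference between the differences gave 19. The mean over the 12 arrays was below that of the median gene for 33 collagens, and low signal limits them in the lines where they are low. COL3A1 and COL14A1 are among these 33 but stood above the median gene in SKR6LR.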
